A study of Mus musculus with 2 samples.

Results

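Circular RNAs (circRNAs) of 3 glycosylation genes, Alg12, Fut8 and B4galnt2, were examined in crypts of the small intestine from wild-type mice. A circRNA was counted to a gene when the deposited gene name held that symbol, which gave 11 of the 1132 circRNAs listed, 1 from Alg12 and 5 each from Fut8 and B4galnt2. The genes were chosen by their back-splice read counts in these libraries, a single strong circRNA for Alg12 and several weak ones for the other two, so their reads are described here without a test. The series had 1 group of 2 total RNA libraries (replicates 1 and 2), with no treatment, other genotype or age given, and the labels do not say whether the libraries came from separate animals. The titles name crypts while the cell type entry names stem cells. Of 12 stem cell marker genes 0 hosted a listed circRNA, and 0 of 8 Paneth cell markers did, against 8 of 13 markers of absorptive enterocytes. Among all 20596 multi-exon protein-coding genes 3.98% hosted one, so a count of 0 in lists this short says little. Of the 8 enterocyte markers, 4 had a circRNA at annotated splice sites, although 89% of all 1132 circRNAs lay at such sites. A circRNA with reads in both libraries was listed for 5 of the 13, where 1.36% of the 20596 genes had one. Goblet cell markers were hosts for 3 of 8, with 0 in both libraries. Circular RNA is a poor measure of a marker's mRNA, so the cell makeup was not tested.

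A circRNA forms when the 3′ end of an exon (the donor site) is spliced back to the 5′ end of the same or an earlier exon (the acceptor site), and sequencing reads that cross the join are called back-splice reads. N-glycans are built on a lipid in the endoplasmic reticulum, passed to proteins and then remodelled in the Golgi. Alg12 encodes a mannosyltransferase that extends the lipid-linked sugar in the endoplasmic reticulum. Fut8 encodes the Golgi fucosyltransferase that adds the core fucose to N-glycans. B4galnt2 encodes an N-acetylgalactosaminyltransferase that caps glycans, and in mice it is known for its activity in the gut epithelium. These are roles of the proteins, and the table measured only circular RNA.

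The Alg12 circRNA joined exon 7 back to exon 6 (chr15:88811297-88812159, mm10, minus strand), and both exons were wholly coding. Its exons are shown in full because they carried every Alg12 back-splice read listed. Capitals mark the 15 bases on each side of the join, at the start of exon 6 (chr15:88812056-88812159) and the end of exon 7 (chr15:88811297-88811520).
Alg12 exon 6: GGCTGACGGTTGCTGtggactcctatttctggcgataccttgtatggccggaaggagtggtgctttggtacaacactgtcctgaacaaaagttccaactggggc
Alg12 exon 7: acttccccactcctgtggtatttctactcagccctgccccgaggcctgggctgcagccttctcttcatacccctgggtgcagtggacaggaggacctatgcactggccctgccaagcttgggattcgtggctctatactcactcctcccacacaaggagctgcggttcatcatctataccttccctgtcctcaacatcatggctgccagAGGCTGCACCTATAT

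The next 9 joins are those of Fut8 and B4galnt2 at annotated splice sites, shown to compare which ends they share. Lower case is the donor side of the join and capitals are the acceptor side, 15 bases each, 5′ to 3′ on the strand of the gene.
Fut8 exon 4: ggctgagtctctccgCATGTAGGATCCATG
Fut8 exons 3 to 4: ggctgagtctctccgCTAATAATTTTCAAG
Fut8 exons 2 to 4: ggctgagtctctccgGTTGCTGTTCTGGCT
Fut8 exons 5 to 6: aggacaccatgaaagAATACCAGAAGGCCC
Fut8 exons 9 to 10: ggaggcaaagacaaaGTGAAGTAAATGACA
B4galnt2 exons 2 to 7: atgaccctggacctgCGTGTCTTTTGCCAG
B4galnt2 exons 2 to 5: gctccagtctatgagCGTGTCTTTTGCCAG
B4galnt2 exons 2 to 4: caattctcatcccagCGTGTCTTTTGCCAG
B4galnt2 exons 6 to 7: atgaccctggacctgGTCATCCTGAAAGCT

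In Fut8 the lower-case side repeats, since 3 joins used the donor of exon 4. In B4galnt2 the capital side repeats, since 3 joins used the acceptor of exon 2. The remaining B4galnt2 feature had neither end at an annotated exon edge and is described with its sequence further on.

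Alg12 had 19 reads in replicate 1 and 37 in replicate 2, so both libraries held the circRNA. Levels are stated in CPM, a count scaled to the back-splice reads listed for its library, 3546 in replicate 1 and 4441 in replicate 2, so that a single read was worth 282 or 225 CPM. On this scale Alg12 had 5358 and 8331 CPM, a mean of 6845 ± 2102 CPM (SD, n = 2). The exact 95% Poisson intervals of these 2 levels, 3226 to 8367 and 5866 to 11484 CPM, overlapped. Such intervals cover counting error alone, as the reads carry no molecular identifiers and need not stem from separate molecules. The Alg12 circRNA ranked 16 by mean level among 1132 circRNAs, and by reads it ranked 7 among the 669 hosts with a single listed circRNA (75.6% of 885 hosts). Alg12 had 56 reads in all, against a median of 3 over hosts of that kind.

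**Figure D1:**
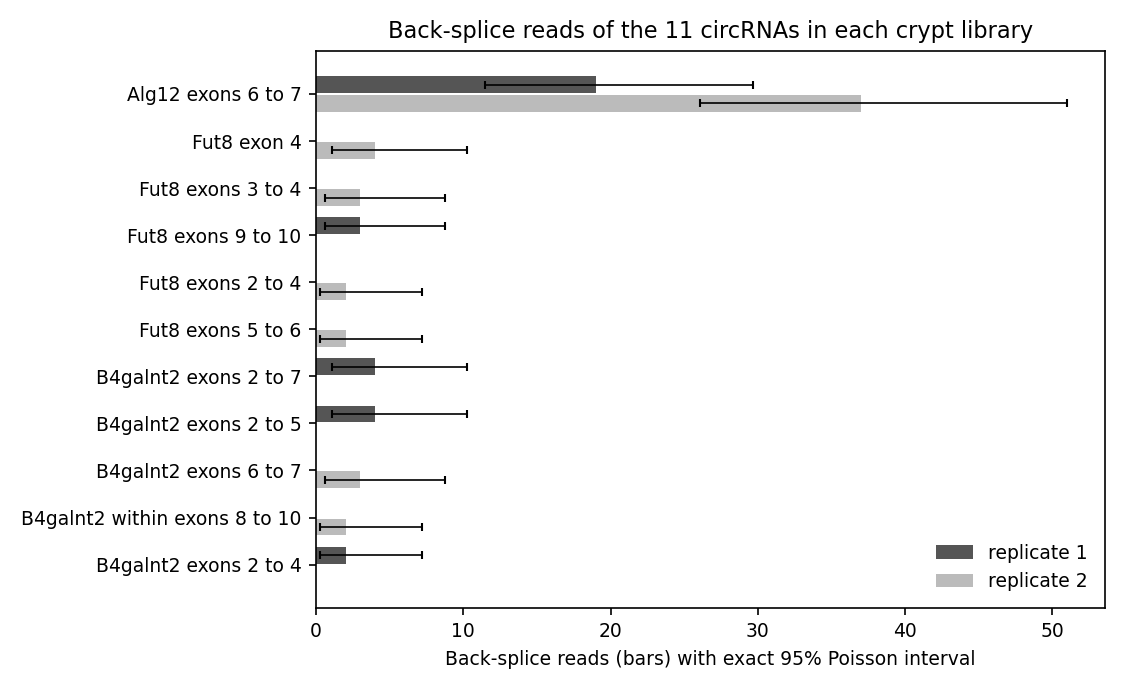
Back-splice reads (x axis) of each of the 11 circRNAs (y axis) in replicate 1 (dark bars) and replicate 2 (light bars), with exact 95% Poisson intervals where reads were listed. Alg12, with 19 and 37 reads, had bars in both libraries, and each of the other 10 had a bar of 2 to 4 reads in a single library.

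Fut8 reads were spread over 5 circRNAs of 2 to 4 reads. The circRNA of exon 4 alone had 0 reads in replicate 1 and 4 in replicate 2, that of exons 3 to 4 had 0 and 3, and that of exons 2 to 4 had 0 and 2. The circRNA of exons 5 to 6 had 0 and 2 reads, and that of exons 9 to 10 had 3 and 0. The libraries thus listed different Fut8 circRNAs, 1 with 3 reads in replicate 1 and 4 with 11 reads in replicate 2.

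B4galnt2 reads were spread in the same manner. The circRNAs of exons 2 to 7 and of exons 2 to 5 each had 4 reads in replicate 1 and 0 in replicate 2, and that of exons 2 to 4 had 2 and 0. The circRNA of exons 6 to 7 had 0 and 3 reads, and the feature within exons 8 to 10 had 0 and 2. Replicate 1 listed 3 of these circRNAs with 10 reads, and replicate 2 listed the other 2 with 5 reads.

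Of the 11 circRNAs, 1 (Alg12) had reads in both libraries, where 29.2% of all 1132 circRNAs did. This count belongs to the pattern that chose the genes, so nothing is read from it. The depth is also a limit here. With 2 to 4 reads a circRNA is at the level of most of the table, since 65.3% of the 1132 circRNAs had at most 4 reads in all. A listed 0 may also hide a single read, although 41 circRNAs with 1 read in all were listed. Of 373 circRNAs with 2 reads in all, 1 had a read in each library. Absence of a Fut8 or B4galnt2 circRNA from a library is therefore not shown.

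Summed over its circRNAs, B4galnt2 had 2820 CPM in replicate 1 and 1126 CPM in replicate 2, a mean of 1973 ± 1198 CPM (SD, n = 2). Fut8 had 846 and 2477 CPM, a mean of 1661 ± 1153 CPM. Both values of Alg12 lay above both values of either gene. The order of B4galnt2 and Fut8 was within their spread and turned round between the libraries. A read marks a single join, so these sums count joins and do not scale with the length of the circle. In reads, Alg12 had 4 times as many as Fut8 (56 and 14) and 3.73 times as many as B4galnt2 (56 and 15).

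The share of a host's reads in its leading circRNA put the contrast on a single scale. The Alg12 circRNA held 56 of 56 reads, a share fixed at 100% because Alg12 had 1 listed circRNA. The leading Fut8 circRNA, exon 4, held 4 of 14 reads (28.6%, 95% Clopper-Pearson interval 8.39 to 58.1%). Either of the leading B4galnt2 circRNAs held 4 of 15 (26.7%, 7.79 to 55.1%). These intervals treat the leading circRNA as named beforehand, although it was picked as the largest. Within a library the split was less fine. In replicate 1 a single Fut8 circRNA, exons 9 to 10, held 3 of 3 reads, while in replicate 2 exon 4 held 36.4% of 11 reads. For B4galnt2 the leading share was 40% of 10 reads in replicate 1 and 60% of 5 reads in replicate 2. Part of the low pooled share of both genes thus came from adding libraries that listed different circRNAs.

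**Figure D2:**
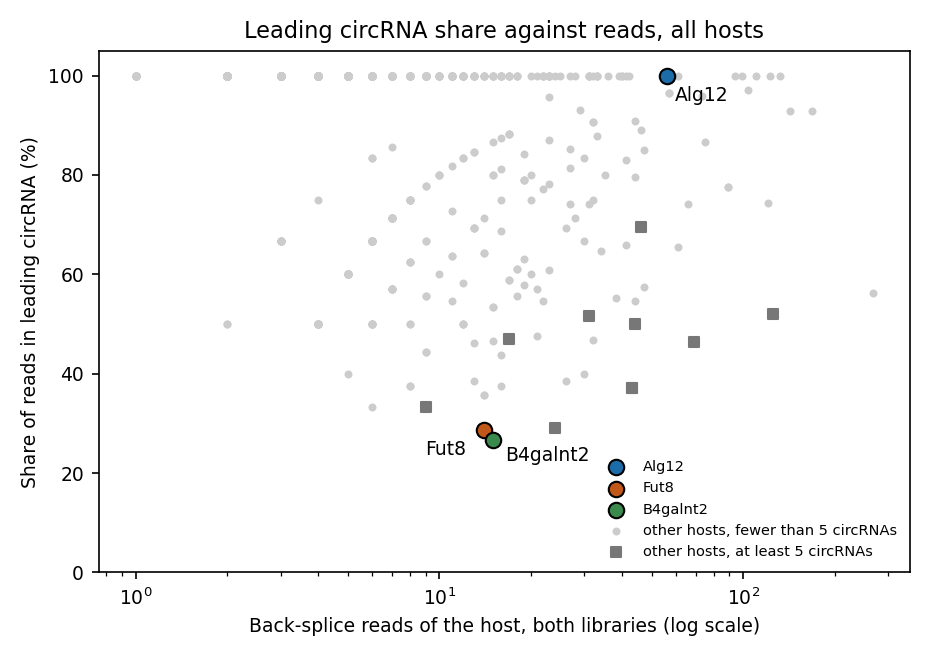
Share of each host's back-splice reads held by its leading circRNA (y axis, percent) against the host's reads in both libraries together (x axis, log scale) for all 885 hosts. Alg12 lies at 100% with 56 reads, and Fut8 and B4galnt2 lie at 28.6% and 26.7% with 14 and 15 reads, near the lower edge of the hosts with at least 5 circRNAs (squares).

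The ends were then compared, because single joins can differ while they share a splice site. The exons inside a circle are taken from the annotation, since the table gives the ends alone. Of the 11 circRNAs, 10 had both ends at splice sites of a single annotated transcript, where 89% of the 1132 did. Among these 10, 7 shared an end with another circRNA of the same gene, where 25.9% of the 1008 circRNAs at splice sites did. Hosts chosen for having 5 circRNAs offer more chances to share an end, so the 2 values are not a like-for-like comparison.

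The donor of Fut8 exon 4 (position 77332329 on chromosome 12, plus strand) was used by 3 of the 5 circRNAs, with 9 of the 14 reads (64.3%, interval 35.1 to 87.2%), 0 in replicate 1 and 9 in replicate 2. Their 5′ ends moved from exon 2 to exon 3 to exon 4 (chr12:77277361-77332329, chr12:77323845-77332329 and chr12:77331896-77332329). The other circRNAs of Fut8 lay downstream, at exons 5 to 6 (chr12:77364969-77365359) and exons 9 to 10 (chr12:77448473-77450276). Exon numbers follow a coding transcript of 12 exons, and another coding transcript of 13 exons has an extra noncoding exon after exon 2. The table cannot show whether the circRNA of exons 2 to 4 holds that exon.

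The acceptor of B4galnt2 exon 2 (position 95891973 on chromosome 11, minus strand) was used by 3 of the 5 circRNAs, with 10 of the 15 reads (66.7%, 38.4 to 88.2%), 10 in replicate 1 and 0 in replicate 2. Here the 5′ end was fixed and the 3′ end lay at exon 4, 5 or 7 (chr11:95888807-95891973, chr11:95883943-95891973 and chr11:95873862-95891973). A start at exon 2 is common, as 36.4% of the 1008 circRNAs at splice sites had one. The donor of exon 7 was also used by the circRNA of exons 6 to 7 (chr11:95873862-95876278), so that this donor had 4 reads in replicate 1 and 3 in replicate 2. Over Fut8 and B4galnt2 together 13 splice sites were used, 8 and 5, and the donor of B4galnt2 exon 7 was the single site among them with reads in both libraries. Most of these sites were used by a single circRNA, so their count largely repeats that of the circles. The share over all splice sites in the series was not computed, so nothing is read from the count of sites.

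**Figure D3:**
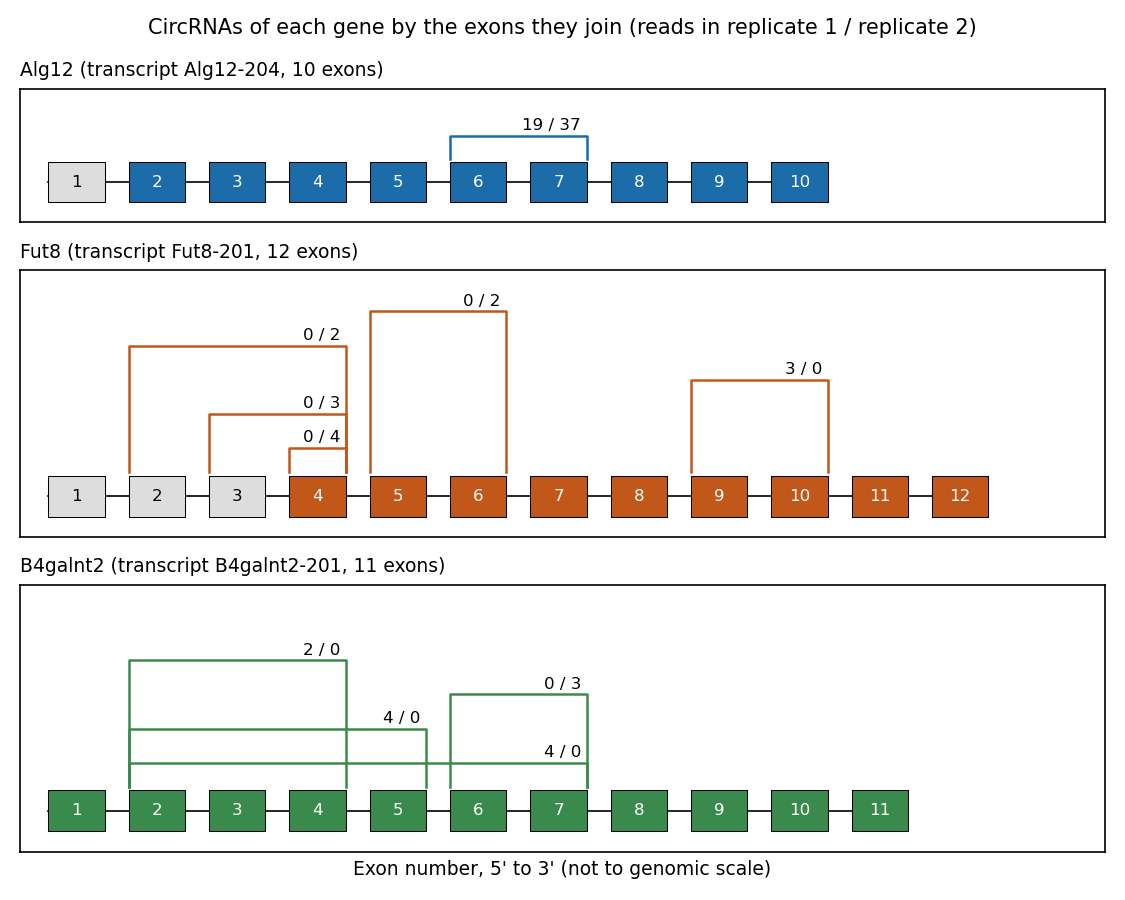
Exons of Alg12, Fut8 and B4galnt2 in transcript order (numbered boxes, grey where noncoding, not to genomic scale), with a bracket for each of the 10 circRNAs at splice sites, labelled with its reads in replicate 1 and replicate 2. Alg12 has a single bracket over exons 6 to 7, the Fut8 brackets meet at the end of exon 4, and the B4galnt2 brackets fan out from the start of exon 2.

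The 3 Fut8 circRNAs share the whole of exon 4 (chr12:77331896-77332329), and only its coding part (chr12:77332127-77332329) is printed. That part is shown because it opens with the annotated start codon, and capitals mark the 15 bases before the join.
Fut8 exon 4, coding part: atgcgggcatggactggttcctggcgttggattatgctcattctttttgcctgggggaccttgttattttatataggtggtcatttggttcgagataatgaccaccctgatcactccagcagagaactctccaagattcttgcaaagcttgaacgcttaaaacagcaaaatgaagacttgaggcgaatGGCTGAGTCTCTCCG
The 3 B4galnt2 circRNAs that began at exon 2 share exons 2, 3 and 4 in the annotation. Of these only exon 2 (chr11:95891758-95891973) is shown, since it holds the shared acceptor, with the 15 bases after the join in capitals.
B4galnt2 exon 2: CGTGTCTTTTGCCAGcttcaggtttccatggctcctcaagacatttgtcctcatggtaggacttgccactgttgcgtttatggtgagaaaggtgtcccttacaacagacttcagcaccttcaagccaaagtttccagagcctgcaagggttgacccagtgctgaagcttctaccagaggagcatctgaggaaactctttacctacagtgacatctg

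The start codon lay inside 3 of the 10 circRNAs, those 3 of Fut8, where 15.2% of the 1008 circRNAs at splice sites held one. Exons 2 and 3 of Fut8 are noncoding and exon 4 is coding for its last 203 of 434 bases, so the 3 circles shared the same 203 coding bases. Read from the start codon across the join, the frame met a stop codon after 69 codons in the circle of exon 4, after 68 codons in that of exons 3 to 4 and after 95 codons in that of exons 2 to 4. The stop thus followed 4, 1 and 82 bases past the join, in sequence that is noncoding in the linear transcript. Translation was not measured. The other 7 circRNAs at splice sites consisted of coding bases alone and had no annotated start codon.

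Circle lengths overlapped between the genes. The Alg12 circle measured 328 bases, the Fut8 circles 279 to 622 bases and the B4galnt2 circles 268 to 767 bases, against a median of 368 over the 1008 circRNAs at splice sites (quartiles 290 and 501). Of the 10 lengths 1, the 279 bases of Fut8 exons 5 to 6, was a multiple of 3, where 33.2% of the 1008 were. The GC content was 55.5% in the Alg12 circle, 50.3 to 50.7% in the B4galnt2 circles and 39.1 to 46.9% in the Fut8 circles, against a median of 48.8% (quartiles 44.7 and 53.3%). The Alg12 circle lay above the upper quartile, and 4 of the 5 Fut8 circles lay at 44.7% or lower. Circles of a single gene share exons, so these lengths and contents are not independent values.

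The introns beside the circles differed more. The Alg12 circle lay between introns of 2294 bases upstream and 4575 bases downstream. The medians were 11220.5 and 8216 bases and the lower quartiles 3253 and 3018 bases. Its upstream intron was thus below the lower quartile, while its downstream intron lay between the lower quartile and the median. The 3 Fut8 circles that ended at exon 4 had a downstream intron of 32639 bases and upstream introns of 7958, 46389 and 38107 bases. The other Fut8 circles had 32639 and 28363 bases (exons 5 to 6) and 35523 and 13783 bases (exons 9 to 10). The 3 B4galnt2 circles that began at exon 2 followed an intron of 22846 bases and had 4440 to 7664 bases after them. The B4galnt2 circle of exons 6 to 7 had 7664 bases upstream and 4440 bases downstream. The circRNA with most reads thus had an upstream intron shorter than those of all 9 others at splice sites, while its downstream intron was within their range.

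The Alg12 exons 6 and 7 had a further feature in the annotation. A coding Alg12 transcript of 8 exons lacks both of them and runs through an intron of 7707 bases (chr15:88806722-88814428) that spans the whole circle. In that transcript the exon before the intron is 25 bases longer than exon 5 of the 10-exon transcript, and the exon after it starts at the same base as exon 8. Such an annotated transcript that skips the circle existed for 1 of the 10 circRNAs, Alg12, and for 66 of the 1008 at splice sites (6.55%). By reads the Alg12 circRNA ranked 2 among those 66. Linear reads were not analysed here, so use of the skipping transcript in these crypts was not tested.

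The remaining B4galnt2 feature (chr11:95866887-95869417, 2 reads in replicate 2) ran from within exon 8 to within exon 10. Its 5′ end lay 4 bases inside the edge of exon 8 and its 3′ end 137 bases before the end of exon 10. The sequences at both ends are shown because of the bases beside them, and capitals mark the pair of bases just outside the circle in the first 2 lines and the acceptor side in the last.
B4galnt2 5′ end in exon 8: agAGgaagatcagaaacct
B4galnt2 3′ end in exon 10: ctgtcttcaccagagGTgg
B4galnt2 join within exons 8 to 10: ctgtcttcaccagagGAAGATCAGAAACCT
The circle was flanked by AG before it and GT after it, the letters that lie beside most exons, although neither end is an annotated site. The last 4 bases of the circle were identical to the 4 bases just before its 5′ end, so the same join can be placed up to 4 bases further 5′ at both ends. At that 5′ limit its 5′ end is the annotated edge of exon 8 (position 95869421). The first base of the circle also equalled the base just after its 3′ end, so the join can be placed 1 base further 3′ as well. The table alone does not tell these placements apart.

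Hosts with a like number of circRNAs were set beside Fut8 and B4galnt2. At least 5 circRNAs were listed under 13 of 885 gene names (1.47%). Fut8, B4galnt2, the actin-bundling protein gene Pls1 and the gene model Gm10680 shared no circRNA between the libraries, 4 of the 13 (30.8%). These 4 had the fewest reads of the 13, 9 to 15 in all, where the others had 17 or more. Fut8 and B4galnt2 were also chosen for this pattern, so nothing is read from the count. Pls1 was close to Fut8, with 12 and 2 reads over 5 circRNAs and a leading share of 28.6%, and Gm10680 had 6 and 3 reads with no circRNA at splice sites. Of the other names, those described here had 1 to 3 circRNAs in both libraries. Foxp1 (listed together with the overlapping model Gm20696), Cds1, Arhgap26 and Gm20388 had 43, 125, 17 and 44 reads, and Rere, Slc12a8 and Zfp827 had 24, 31 and 69. Foxp1 and Gm20696 each count among the 13 names. The 5 circRNAs of the model Gm20388 were also listed under Afg3l1, Galnt2, Gse1, Tcf25 and Zfp276, each of which had 1. Gm20388 is thus not like Fut8 or B4galnt2 in this respect. The leading share was 28.6% for Fut8 and 26.7% for B4galnt2, against 29.2 to 52% for these names.

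Hosts with like levels in both libraries were found by Euclidean distance of log2(CPM + 1) over the 2 libraries. Tmem56 had the same 3 and 11 reads as Fut8 (distance 0) in 1 circRNA, Canx had 3 and 12 reads in 3 circRNAs (distance 0.13) and Ccar1 had 3 and 9 reads in 1 (distance 0.29). Another host, tied with Ccar1 and later in the alphabet, had the same reads in 3 circRNAs with a leading share of 50%. For B4galnt2 the nearest were Malat1, listed with the overlapping model Gm27694, at 9 and 5 reads in 4 features (distance 0.15), and Pip5k1b, a phosphoinositide kinase gene, at 10 and 6 reads in 4 (distance 0.26). Their leading shares were 35.7 and 37.5%, and 0 of the 4 Malat1 features and 2 of the 4 Pip5k1b circRNAs had reads in both libraries. For Alg12 they were Fryl, listed with the model Gm17207, at 20 and 37 reads in 2 circRNAs (distance 0.07) and the deadenylase gene Cnot6l at 23 and 38 reads in 1 (distance 0.28). Tmem56 thus had in a single circRNA, found in both libraries, the sum that Fut8 had over 5, while Malat1 was close to B4galnt2 in spread as well as in level. Malat1 was not like B4galnt2 in structure, since 0 of its 4 features were at splice sites, against 4 of 5 for B4galnt2.

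The other genes of protein glycosylation gave the setting of the 3 hosts. Of 153 multi-exon protein-coding genes in 8 glycosylation lists 17 hosted a circRNA (11.1%, interval 6.61 to 17.2%), and without Alg12, Fut8 and B4galnt2 14 of 150 did (9.33%, 5.20 to 15.2%). Among all 20596 multi-exon protein-coding genes 3.98% were hosts. Expression and gene length were not matched, and no test was made. Hosts with a circRNA in both libraries were 7 of the 150 other genes, where the share over all genes was 1.36%.

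Among the genes that build the lipid-linked sugar, 4 of 26 were hosts. Alg12 led, followed by Alg6, which encodes a glucosyltransferase of the same pathway, with 4 and 3 reads over 2 circRNAs, Alg13 with 0 and 5 reads and the phosphomannomutase gene Pmm2 with 3 and 0 reads. The Alg13 circRNA (exons 13 to 15) was, like that of Alg12, skipped by an annotated transcript. Of 12 genes of the oligosaccharyltransferase, which moves the sugar to the protein, 2 were hosts, Rpn1 with 2 and 0 reads and Magt1 with 0 and 2.

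Of 21 genes of trimming and quality control 3 were hosts, each with reads in both libraries. The Golgi mannosidase gene Man2a1 had 8 and 4 reads, the lectin chaperone gene Canx 3 and 12, and Prkcsh, which encodes a subunit of glucosidase II, 3 and 5. The branching list had 1 host of 8, the N-acetylglucosaminyltransferase gene Mgat4a, with 15 and 26 reads (5042 ± 1149 CPM, SD, n = 2). In the fucosylation list 2 of 15 were hosts, Fut8 and Gmds, which encodes an enzyme that makes the fucose donor. Gmds had a single circRNA of exons 2 to 4 with 13 and 19 reads (3972 ± 433 CPM, SD, n = 2), a higher sum than the 5 circRNAs of Fut8 in both libraries.

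B4galnt2 was 1 of 3 hosts among 24 genes that add galactose or N-acetylgalactosamine, and the other two, B4galt6 and B3gnt3, had 2 and 0 reads each. Sialylation had 1 host of 24, St3gal6 with 2 and 0 reads, and mucin-type O-glycosylation had 1 of 23, the initiating enzyme gene Galnt2, with 7 and 6 reads. By mean level B4galnt2 and Fut8 ranked 4 and 7 among the 17 hosts. Canx, Galnt2 and Man2a1 lay beside them with ranges that overlapped theirs.

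**Figure D4:**
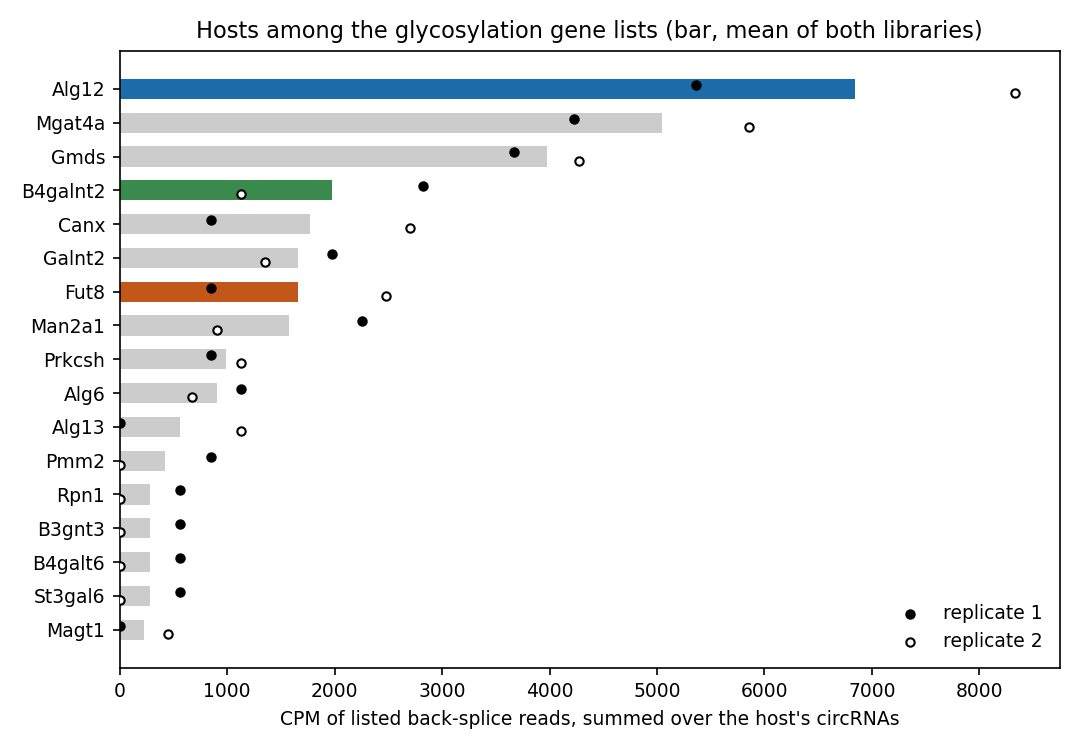
Level of the 17 glycosylation hosts (y axis) in CPM of the listed back-splice reads summed over a host's circRNAs (x axis), as the mean of both libraries (bars) with replicate 1 (filled points) and replicate 2 (open points). Alg12, Mgat4a and Gmds lead with both points at 3666 CPM or higher, and the points of B4galnt2 (2820 and 1126 CPM) and of Fut8 (846 and 2477 CPM) lie far apart.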

How the data were processed

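An MGI kit served for the libraries of total RNA, per the labels' protocols. The submitters' processing notes name mm10 as the build. The aligner, circRNA caller, filters and strand handling were not given in the sources used here. Raw counts of back-splice reads per circRNA and library were in the deposited table, per the file headers. The authors also deposited a CPM signal, each count times 272 in replicate 1 or 233 in replicate 2. CPM was computed here from the listed totals, which are not the sequencing depth, and 0 sample columns were left unused.

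Ends were matched to GENCODE M21 exons, also on mm10, where 884 of 885 Ensembl identifiers had an entry. Both ends had to be splice sites of a single transcript, and coding, basic transcripts with the longest coding sequence were preferred. The matching was tested on simulated data. Sequences were read from GENCODE M21 transcripts. Intervals are exact at 95%. TMM factors came from edgeR 4.0.16 in R 4.3.3, and intervals from scipy 1.17.1.

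With 1 group there was no contrast and no p-value. Members and lists were chosen with earlier results of these data known. Named genes are all hosts in the glycosylation lists, hosts with at least 5 circRNAs and the 3 hosts nearest to each gene in level; 1 host that this rule selects is not reported here. Overlapping and antisense genes could not be separated. Of 162 list genes, 153 were found as multi-exon coding genes under their symbols. Marker lists of goblet, immune, enteroendocrine and tuft cells and of stroma had hosts at 3 of 8, 1 of 8, 0 of 7, 0 of 5 and 0 of 10 genes. The share over all multi-exon protein-coding genes was 3.98%. Alternatives covered scaling, read minimum, splice sites and each library alone.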

Additional observations from a re-analysis of the deposited data

How the results depend on the processing

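The levels of Alg12, Fut8 and B4galnt2 moved by less than the SD between libraries with TMM scaling. The deposited CPM gave the same values as TMM scaling (272 and 233 per read in replicates 1 and 2), so it was not a separate check. With totals over circRNAs of at least 5 reads, Alg12 reached 8955 CPM, since those totals are smaller. Without one library the levels ranged from 5358 to 8331 CPM for Alg12, 846 to 2477 CPM for Fut8 and 1126 to 2820 CPM for B4galnt2. The leading share of Alg12 is 100% by definition, as it had 1 listed circRNA. For Fut8 the share ranged from 36.4 to 100%, the 100% resting on 3 reads without replicate 2. For B4galnt2 it ranged from 40 to 60% and was 50% as the mean of both libraries, because each library listed fewer circRNAs. The low pooled shares of Fut8 and B4galnt2 therefore depend on adding the libraries. No circRNA of Fut8 or B4galnt2 had 5 reads, so that minimum gave no share for them. The count of circRNAs in both libraries was 1 with that minimum and 1 at splice sites alone.

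With hosts counted only where a circRNA had reads in both libraries, the glycosylation lists had 8 hosts in all, 2 for lipid-linked assembly, 1 for fucosylation and 0 each for the oligosaccharyltransferase, for galactose and N-acetylgalactosamine addition and for sialylation. Without one library the hosts numbered 12 to 15 in all, 1 for the oligosaccharyltransferase, 1 to 3 for galactose and N-acetylgalactosamine addition and 0 to 1 for sialylation. No paired analysis was possible because the series has 1 group.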
